A study of Mus musculus with 6 samples.

Results

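The genes described here are the ligands, receptors, SMAD proteins, antagonists and ID target genes of the TGF-beta, activin and BMP pathways, 38 genes of the 19938 tested. They were chosen by name, with earlier results of these data known. Each was read from a probe set annotated with that 1 gene symbol, the brightest over the 6 arrays where a gene had more than 1. Expression was measured on Affymetrix arrays in lung endothelial cells (lECs) of the C57BL/6 mouse strain. In 3 cultures the cells had been stably transfected with pcDNA3.1/Hygro(-) carrying full-length mouse L1CAM, a transmembrane adhesion molecule, and in the 3 control cultures with the same vector left empty. All were grown for 4 days to confluence in 20% serum with heparin and endothelial cell growth supplement, so that, as far as the labels say, the controls share every condition but the insert. The labels describe 3 biological replicates per group and tell apart 1 transfectant per group, without saying whether it was a clone or a pool. The p-values therefore measure the spread between cultures, and a difference between transfectants cannot be told apart from an effect of L1CAM.

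Ligands of the TGF-beta family bind pairs of type I and type II receptor kinases. TGF-beta and activin receptors mainly phosphorylate SMAD2 and SMAD3, BMP receptors mainly SMAD1, SMAD5 and SMAD9, and all of these enter the nucleus with SMAD4. TGF-beta is secreted in a latent complex, which LTBP proteins tether to the matrix and from which integrins can release the ligand. Endothelial cells are known for answering both branches, and mutations in the BMP receptors BMPR2 and ACVRL1 cause inherited diseases of blood vessels.

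L1cam measured 6.50, 6.77 and 7.31 in control replicates 1, 2 and 3 and 10.49, 10.60 and 10.73 in L1CAM replicates 1, 2 and 3 (log2 expression), so the arrays lay on the sides their labels name. Array medians were 6.55 to 6.58. L1CAM replicate 1 stood apart from the other arrays of its group, with correlations across genes of 0.9948 and 0.9951 against 0.9986 between replicates 2 and 3. It was as close to control replicate 1 (0.9952) as to its own group, whereas L1CAM replicates 2 and 3 correlated with the controls at 0.9878 to 0.9903. Results that rest on L1CAM replicate 1 are given with and without it. All 11 endothelial markers lay above the array medians on every array, with 1 called higher (Robo4) and 1 lower (Cldn5). The other cell types' lists had 0 of 4 lymphatic, 0 of 9 fibroblast and mural and 0 of 7 epithelial markers called. On all 6 arrays 3 lymphatic (Lyve1, Pdpn and Flt4), 3 fibroblast and mural (Pdgfra, Col1a2 and Thy1) and 1 epithelial marker (Krt8) lay above the medians. Lyve1 was high, at 11.49 to 12.33. Of the 8 macrophage and leukocyte markers only Cd5l was called, and it fell by 3.99, from 10.62 to 10.99 in control to 6.06 to 7.95 in L1CAM arrays. Cd68 (12.00 to 12.38) and Lyz2 (7.11 to 8.56) lay above the array medians on all 6 arrays, and Ptprc (4.56 to 4.86), Csf1r, Adgre1, Itgam and Marco below them. The mean of that list was 7.03 to 7.21 in control and 6.45 to 6.81 in L1CAM arrays. Without Cd5l, left out after its values were seen, the mean of the remaining 7 genes was 6.52 to 6.69 and 6.44 to 6.64, so the groups then overlapped. The part of these markers in the results below was not tested.

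Of the 38 pathway genes, 5 rose in L1CAM cells, 5 fell and 28 were not called, where called means an adjusted p below 0.05 in limma, adjusted over all genes tested. That is 26.3% of the pathway genes, against 15.0% of all genes called in either direction. Neither these shares nor those given below against all genes allow for brightness. A filter on dim probe sets left out 5 of the 38 pathway genes and kept 11409 of all genes. Under it 3 pathway genes were called higher and 8 lower, against 3421 of the 11409 genes kept. Because the genes were chosen with earlier results known, these shares and counts are description only, and their differences were not tested. Over all genes 6.85% were called higher and 8.19% lower. The risers were the ligand genes Bmp2, Bmp4 and Inhbb, the BMP receptor gene Bmpr1a and the BMP signal transducer Smad1. The genes that fell were the ligand gene Tgfb3, the latency genes Ltbp1 and Ltbp3, the co-receptor gene Tgfbr3 and the BMP receptor gene Bmpr2. Differences are L1CAM minus control on the log2 scale throughout. They ran from -1.22 to 0.83 among the pathway genes, with a median of 0.04, against a median of 0.02 over all genes. The 3 L1CAM arrays lay wholly beyond the 3 control arrays in 19 of the 38 genes, or 50.0%, against 34.6% of all genes. They lay above in 11 and below in 8, against 18.6% and 16.0% of all genes. These are bulk measurements, in which fewer cells of a kind and less RNA per cell cannot be told apart.

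**Figure D1:**
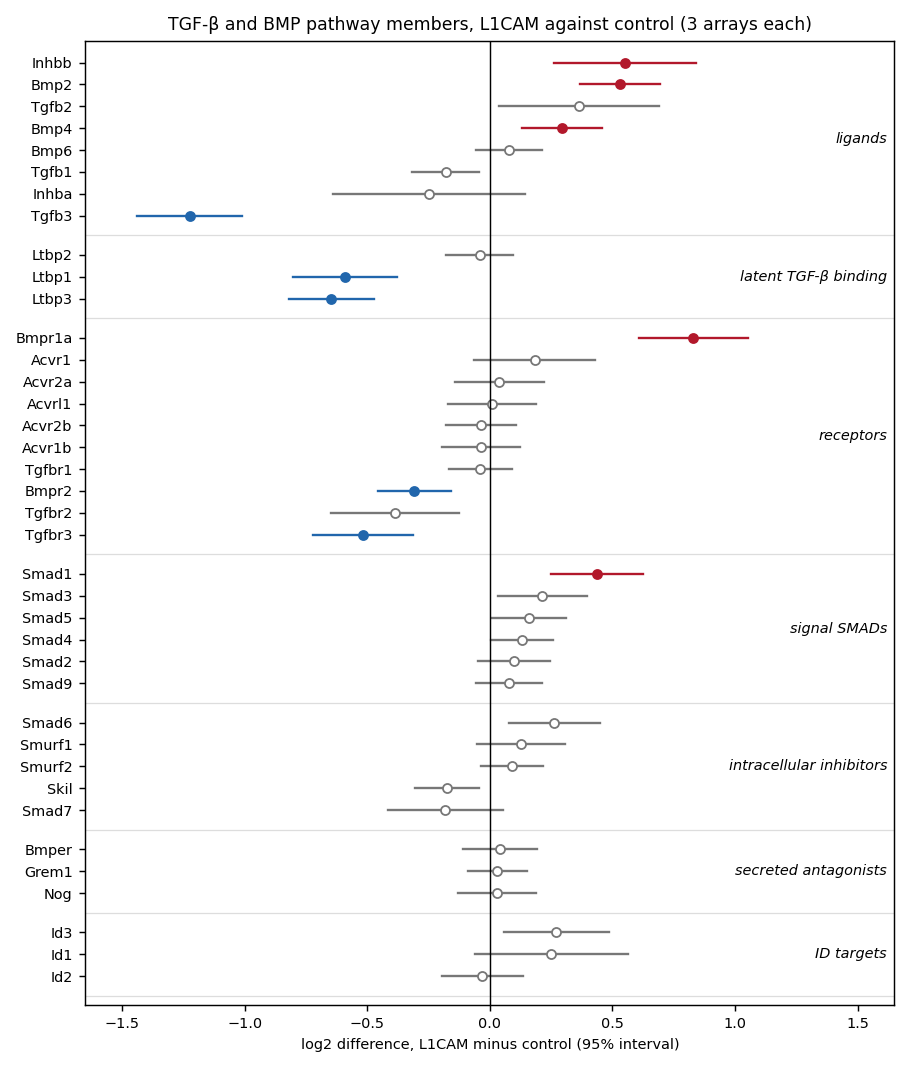
Log2 difference between L1CAM and control cells for each of the 38 genes (points) with its 95% interval (lines), grouped by role, with 3 arrays per group. Filled red points rose, filled blue points fell and open grey points were not called; Tgfb3 lies farthest to the left at -1.22 and Bmpr1a farthest to the right at 0.83.

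Among the 8 ligand genes the TGF-beta isoforms did not move alike. Tgfb3, the isoform known for its roles in palate and lung development, read 11.60, 11.89 and 11.85 in control replicates 1 to 3 and 10.64, 10.57 and 10.45 in L1CAM replicates 1 to 3 (log2). Every L1CAM array lay far below every control array. Tgfb3 fell from 11.78 ± 0.16 to 10.55 ± 0.10 (SD, n = 3 arrays), a difference of -1.22 (SE 0.09, limma adjusted p = 0.000465), which is 2.34-fold. Tgfb1, the most widely expressed isoform, read 12.23, 12.20 and 12.20 in control and 11.95, 12.08 and 12.07 in L1CAM arrays. Its groups did not overlap, but its difference of -0.18 (95% interval -0.32 to -0.05) was not called, with a limma adjusted p of 0.0788. Without L1CAM replicate 1 the difference of Tgfb1 was -0.14 (limma adjusted p = 0.111). Tgfb2 read 8.84, 9.04 and 9.00 in control and 8.98, 9.50 and 9.49 in L1CAM arrays. L1CAM replicate 1 lay among the controls and the other L1CAM arrays above them. Its difference was 0.36 (SE 0.14, limma adjusted p = 0.131), and 0.54 without L1CAM replicate 1 (limma adjusted p = 0.00122).

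The BMP ligand genes that were called both rose. Bmp2, a ligand that acts on endothelium and bone, read 4.75, 4.69 and 4.57 in control and 5.15, 5.16 and 5.29 in L1CAM arrays. The groups did not overlap, and Bmp2 rose by 0.53 (SE 0.07, limma adjusted p = 0.00363), which is 1.45-fold. Bmp4, a ligand of vessel and lung development, read 5.98, 5.85 and 5.90 in control and 6.28, 6.25 and 6.09 in L1CAM arrays, again without overlap. It rose by 0.30 (SE 0.07, limma adjusted p = 0.0301), which is 1.23-fold. Both probe sets lay below the median of every array, where they were not shown to be above background, so the folds are not exact. For Bmp2 the control arrays also lay under the lower quartile of all probe sets. Bmp6 was not called (0.08, limma adjusted p = 0.438).

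The activin subunit genes differed from each other. Inhbb, which encodes the beta-B subunit, read 7.43, 7.61 and 7.53 in control and 7.78, 8.23 and 8.22 in L1CAM arrays. All L1CAM arrays lay above the controls, with replicate 1 nearest to them. Inhbb rose by 0.55 (SE 0.12, limma adjusted p = 0.0256), which is 1.46-fold. Inhba, the beta-A subunit gene, read 7.46, 8.15 and 8.01 in control and 7.76, 7.52 and 7.58 in L1CAM arrays. Control replicate 1 was its lowest value of all, and the groups overlapped. The difference was -0.25 (SE 0.17, limma adjusted p = 0.395), and -0.46 without control replicate 1 (limma adjusted p = 0.0345).

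**Figure D2:**
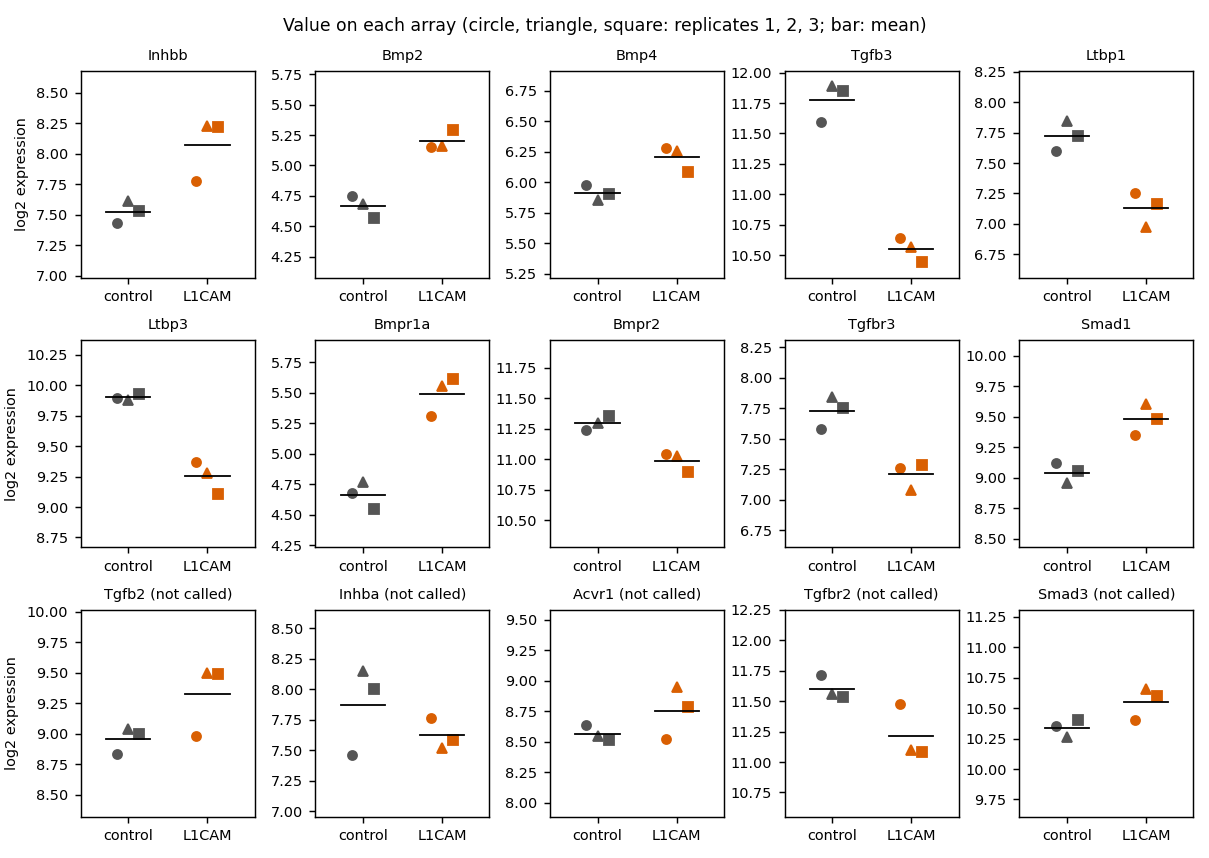
Log2 expression on each array for the 10 called genes (first 10 panels) and for 5 of the genes not called above, which were called when 1 array was left out (last row). Circles, triangles and squares are replicates 1, 2 and 3, bars are group means, and every panel spans the same number of log2 units; L1CAM replicate 1 (orange circle) lies near the controls for Tgfb2, Tgfbr2, Acvr1 and Smad3.

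Genes for latent TGF-beta binding proteins fell in 2 of 3 cases, against 8.19% of all genes. Ltbp3, which helps secrete latent TGF-beta and bind it to the matrix, read 9.89, 9.88 and 9.93 in control and 9.37, 9.28 and 9.11 in L1CAM arrays. The control arrays lay within a narrow range, far above all L1CAM arrays. It fell by 0.65 (SE 0.07), from 9.90 ± 0.03 to 9.25 ± 0.13 (SD, n = 3 arrays), which is 1.56-fold (limma adjusted p = 0.00216). Ltbp1, a tether of the latent complex to fibrillin and fibronectin, read 7.60, 7.84 and 7.72 in control and 7.26, 6.97 and 7.16 in L1CAM arrays. It fell by 0.59 (SE 0.09, limma adjusted p = 0.00668), which is 1.51-fold, without overlap of the groups. Ltbp2, a relative that binds fibrillin but not latent TGF-beta, was not called (-0.04, 95% interval -0.18 to 0.09, limma adjusted p = 0.705). The 250 bases before the most upstream RefSeq start of Ltbp3 and Ltbp1 are shown, in lower case with searched motifs in capitals. These 2 had the largest falls among genes with a matched start that were called whichever single array was left out. Tgfb3, which fell more, had no matched start. The motifs were CAGAC, the core read by SMAD3 and SMAD4, GGCGCC, a GC-rich element read by BMP SMADs, and TGACGTCA, the cyclic AMP response element, each searched on both strands.
Ltbp3: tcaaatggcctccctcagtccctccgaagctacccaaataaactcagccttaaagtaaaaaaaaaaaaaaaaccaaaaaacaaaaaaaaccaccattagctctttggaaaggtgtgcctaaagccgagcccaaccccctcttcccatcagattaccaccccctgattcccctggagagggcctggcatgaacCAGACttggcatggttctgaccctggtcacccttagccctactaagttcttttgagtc
Ltbp1: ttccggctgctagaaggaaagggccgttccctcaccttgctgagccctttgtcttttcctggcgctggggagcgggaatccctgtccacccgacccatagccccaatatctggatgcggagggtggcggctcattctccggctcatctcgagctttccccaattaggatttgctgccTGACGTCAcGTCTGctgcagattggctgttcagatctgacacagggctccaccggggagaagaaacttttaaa
The Ltbp3 window is chr19:5740650-5740899 on the plus strand and the Ltbp1 window chr17:75005279-75005528 on the plus strand, both of build GRCm38.p6. Each held 1 CAGAC match (in Ltbp1 as GTCTG, its reverse complement), and the Ltbp1 window held 1 TGACGTCA match beside it, not overlapping it.

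Receptor genes moved in both directions, with 1 of 10 higher and 2 lower, or 30.0% called, against 15.0% of all genes. Bmpr1a, a type I receptor for BMP ligands, had the largest rise of the pathway. It read 4.67, 4.77 and 4.55 in control and 5.31, 5.55 and 5.62 in L1CAM arrays, a difference of 0.83 (SE 0.10, limma adjusted p = 0.00215), which is 1.78-fold. Its control arrays lay under the lower quartile of all probe sets and its L1CAM arrays above it but below the array medians, so that its fold is not exact. The 250 bases before its RefSeq start, chr14:34502547-34502796 on the minus strand (GRCm38.p6), are shown and held 1 GGCGCC match. Bmpr1a was the only riser with a matched start that was called whichever single array was left out.
Bmpr1a: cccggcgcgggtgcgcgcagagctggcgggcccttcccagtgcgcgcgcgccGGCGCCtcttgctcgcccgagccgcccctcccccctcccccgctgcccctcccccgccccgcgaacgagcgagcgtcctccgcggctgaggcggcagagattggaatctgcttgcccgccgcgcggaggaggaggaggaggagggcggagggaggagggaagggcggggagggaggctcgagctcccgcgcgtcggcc
Bmpr2, the type II partner of BMP receptors and the main gene of heritable pulmonary arterial hypertension, read 11.24, 11.29 and 11.36 in control and 11.04, 11.03 and 10.90 in L1CAM arrays. The groups did not overlap, and Bmpr2 fell by 0.31 (SE 0.06, limma adjusted p = 0.0191), which is 1.24-fold.

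Of the TGF-beta receptor genes, the co-receptor fell. Tgfbr3, or betaglycan, which presents ligand to the type II receptor, read 7.58, 7.84 and 7.76 in control and 7.26, 7.08 and 7.29 in L1CAM arrays. It fell by 0.52 (SE 0.09, limma adjusted p = 0.00914), which is 1.43-fold, without overlap. Tgfbr2, the type II receptor, read 11.72, 11.55 and 11.54 in control and 11.47, 11.10 and 11.08 in L1CAM arrays. Its L1CAM arrays all lay below the controls, replicate 1 only just. The difference was -0.39 (SE 0.11, limma adjusted p = 0.0584), and -0.51 without L1CAM replicate 1 (limma adjusted p = 0.00127). Tgfbr1, its type I partner, was not called (-0.04, 95% interval -0.17 to 0.09, limma adjusted p = 0.705).

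The remaining receptor genes were not called. Acvrl1, the type I receptor typical of endothelium, read 11.09, 11.10 and 11.14 in control and 11.29, 11.03 and 11.05 in L1CAM arrays, with L1CAM replicate 1 above all others. Its difference was 0.01 (95% interval -0.17 to 0.19), and -0.07 without L1CAM replicate 1 (limma adjusted p = 0.409). Acvr1, a type I receptor for BMP ligands and activin, read 8.64, 8.54 and 8.52 in control and 8.52, 8.95 and 8.78 in L1CAM arrays. Its difference was 0.18 (limma adjusted p = 0.31), and 0.30 without L1CAM replicate 1 (limma adjusted p = 0.0193). The activin receptor genes Acvr1b (-0.04), Acvr2a (0.04) and Acvr2b (-0.04) had limma adjusted p-values of 0.777, 0.796 and 0.759.

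The 6 SMAD genes that carry the signal all had differences above 0, from 0.08 to 0.44. Of them 1 was called, or 16.7%, against 15.0% of all genes. Among all genes, 11370 of 19938 had a difference above 0. Smad1, a transducer of BMP signals, read 9.12, 8.95 and 9.05 in control and 9.35, 9.61 and 9.48 in L1CAM arrays. Every L1CAM array lay above every control array, and Smad1 rose by 0.44 (SE 0.08, limma adjusted p = 0.0122), which is 1.35-fold. Its relatives Smad5 (0.16) and Smad9 (0.08) had limma adjusted p-values of 0.154 and 0.429. Smad3, a transducer of TGF-beta signals, read 10.35, 10.26 and 10.40 in control and 10.41, 10.65 and 10.60 in L1CAM arrays, with L1CAM replicate 1 level with the highest control. Its difference was 0.21 (SE 0.08, limma adjusted p = 0.113), and 0.29 without L1CAM replicate 1 (limma adjusted p = 0.0132). Smad2 (0.10) and the common partner Smad4 (0.13) had limma adjusted p-values of 0.373 and 0.155.

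None of the 5 genes for intracellular inhibitors was called. Smad6, an inhibitor of BMP receptors and itself a BMP target, read 7.10, 7.07 and 7.18 in control and 7.54, 7.29 and 7.31 in L1CAM arrays. The groups did not overlap, and the difference was 0.26 (95% interval 0.08 to 0.45, limma adjusted p = 0.0662). Without L1CAM replicate 1 it was 0.18 (limma adjusted p = 0.0634). Smad7, the inhibitor of TGF-beta receptors, measured -0.18 with overlapping groups (limma adjusted p = 0.29), and -0.08 without L1CAM replicate 1 (limma adjusted p = 0.513). Skil, whose product SnoN represses SMAD targets, measured -0.17 without overlap (95% interval -0.31 to -0.04, limma adjusted p = 0.0808). The ubiquitin ligase genes Smurf1 (0.13) and Smurf2 (0.09) had limma adjusted p-values of 0.339 and 0.335.

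The 3 secreted BMP antagonist genes differed by no more than 0.04 between groups. Nog, which encodes noggin, measured 6.90 ± 0.10 in control and 6.93 ± 0.06 in L1CAM arrays (SD, n = 3 arrays), with limma adjusted p = 0.824 and overlapping groups. Grem1, gremlin, and Bmper, a BMP-binding protein of endothelium, lay below the median on all arrays, with limma adjusted p-values of 0.759 and 0.722. For the 3 of them together the 95% intervals reached from -0.13 to 0.19.

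The ID genes, textbook BMP targets that encode inhibitors of basic helix-loop-helix factors, were not called either. Id1 read 9.47, 9.83 and 10.07 in control and 10.07, 10.00 and 10.05 in L1CAM arrays. Its control arrays spread widely, with a SD of 0.30 against 0.04 in L1CAM arrays, and the difference was 0.25 (95% interval -0.06 to 0.57, limma adjusted p = 0.273). Id3 read 9.72, 10.05 and 10.04 in control and 10.19, 10.18 and 10.24 in L1CAM arrays. Its groups did not overlap, and control replicate 1 was lowest, as for Id1. The difference was 0.27 (95% interval 0.06 to 0.49, limma adjusted p = 0.0924). Without control replicate 1 the differences were smaller, 0.09 for Id1 and 0.16 for Id3 (limma adjusted p = 0.581 and 0.151). Id2 measured -0.03 (95% interval -0.19 to 0.13, limma adjusted p = 0.83).

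**Figure D3:**
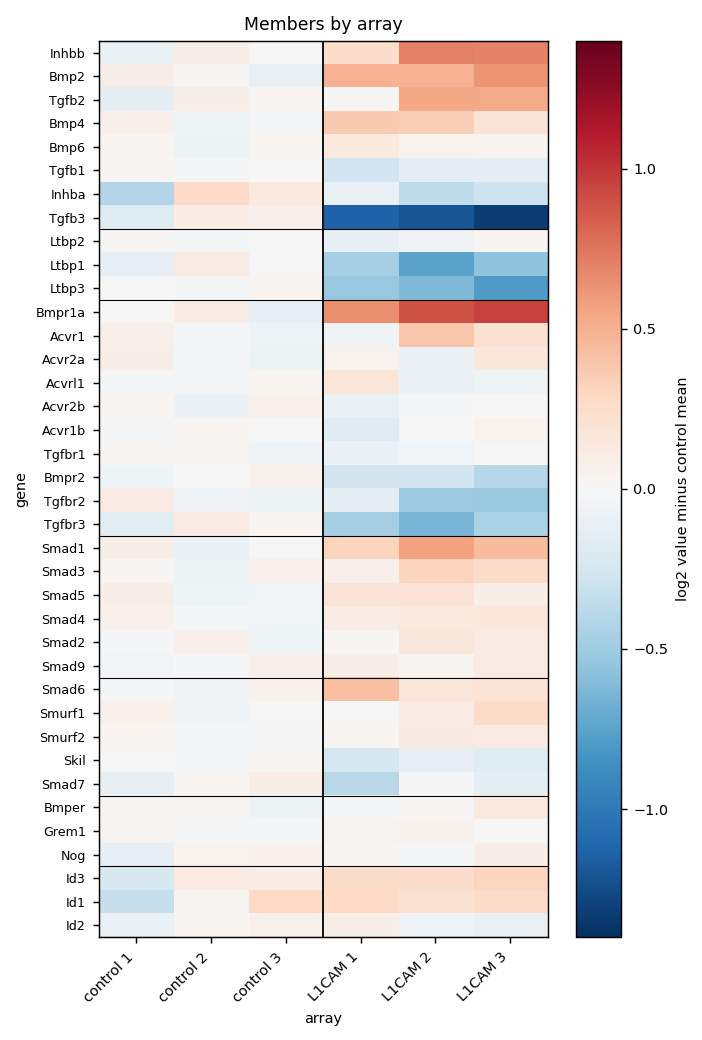
Each gene's log2 value on each of the 6 arrays minus its mean in the 3 control arrays, as colour (red above, blue below the control mean), with genes grouped by role between black lines. Tgfb3, Ltbp1, Ltbp3 and Tgfbr3 are blue and Bmp2 and Bmpr1a red on all 3 L1CAM arrays, whereas Inhbb, Tgfb2 and Tgfbr2 are paler in L1CAM replicate 1.

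Of the 10 called genes, 6 were called whichever single array was left out: Tgfb3, Ltbp3, Ltbp1, Tgfbr3, Bmpr1a and Bmp2. That is 6 of the 38 pathway genes. Over all genes 924 of the 2999 called met that condition, which is 4.63% of the 19938 tested. Inhbb was lost in every such fit but the one without L1CAM replicate 1, where it measured 0.70 (limma adjusted p = 0.000211). Bmp4 was lost without control replicate 1, 2 or 3 or L1CAM replicate 2 (limma adjusted p = 0.0536 to 0.118). Bmpr2 was lost without control replicate 2 or 3 or L1CAM replicate 2 or 3 (limma adjusted p = 0.0517 to 0.0824). Smad1 was lost without control replicate 2 or 3 or L1CAM replicate 3 (limma adjusted p = 0.0501 to 0.0601). Without L1CAM replicate 1, 14 of the 38 genes were called, 8 higher and 6 lower, against 24.8% of all genes. The 4 genes gained were Tgfb2, Tgfbr2, Acvr1 and Smad3.

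L1CAM replicate 1 shared the shift of some genes and not of others. Its distance from the control mean was 89.4% of that of the mean of replicates 2 and 3 for Tgfb3, 87.1% for Bmp2 and 85.6% for Tgfbr3. For Ltbp3, Ltbp1 and Bmpr1a it was 75.1%, 71.4% and 70.2%. It was 35.7% for Inhbb, 25.2% for Tgfbr2, 23.8% for Smad3 and 3.97% for Tgfb2. For Bmp4 it was 141%, so that replicate 1 lay farther from the controls than the others did. The median of this share was 75.7% over the 10 called genes and 69.3% over all called genes of the array. Replicate 1 was part of the fit that called them, which favours genes where it shared the shift. Both medians therefore depend on that choice.

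**Figure D4:**
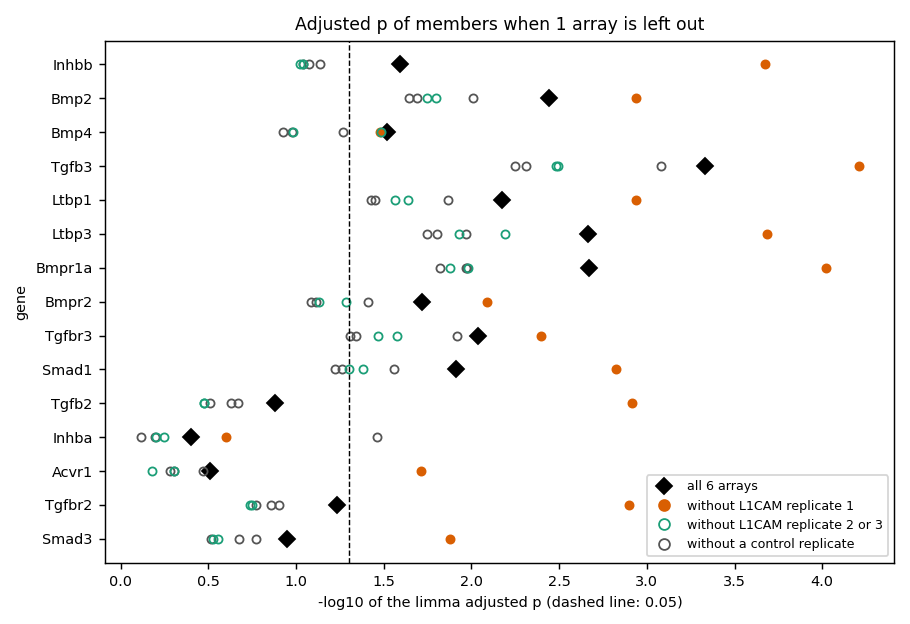
Limma adjusted p on a -log10 axis for the 10 called genes and 5 of the genes not called above, which were called in a fit with 1 array left out, from the fit of all 6 arrays (black diamonds) and with each array left out in turn (circles); points right of the dashed line pass 0.05. All circles of Tgfb3, Ltbp1, Ltbp3, Bmp2, Bmpr1a and Tgfbr3 lie right of the line, and the filled orange circles (without L1CAM replicate 1) lie right of it for all but Inhba.

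RefSeq start sites were matched for 28 of the 38 genes, and the 250 bases before the most upstream start were searched. A CAGAC match was found in 12 of these 28 windows, or 42.9%, and in 42.2% of all 27025 such windows. These were 1 per gene symbol in the RefSeq tables, whether or not the gene was among those tested. GGCGCC was found in 7 windows, or 25%, and in 9.57% of all windows. The pathway windows were also richer in G and C, with a median of 68.4% against 52% over all windows. TGACGTCA was found in 1 window, that of Ltbp1, and in 1.6% of all windows. The motifs are given as letters in the sequence and show no binding.

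Beyond the 38, a list of 100 other genes of these pathways was written by role, and 95 of them were measured. Of these, 5 rose and 11 fell, or 16.8%, close to the 15.0% of all genes, with a median difference of 0.02. Called genes were spread over 5 of 6 roles, as named below.

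Both subunit genes of an integrin that releases latent TGF-beta fell. Itgb8, the beta subunit, read 7.11, 7.18 and 6.76 in control and 6.17, 5.93 and 5.91 in L1CAM arrays. It fell by 1.02 (SE 0.12, limma adjusted p = 0.00257), and its L1CAM arrays lay below the array medians, so the size is not exact. Its partner Itgav read 10.60, 10.72 and 10.68 in control and 10.04, 10.04 and 9.94 in L1CAM arrays and fell by 0.66 (SE 0.06, limma adjusted p = 0.00082). Nrros and Lrrc32 encode cell-surface anchors of latent TGF-beta and went opposite ways, Nrros by -0.27 (limma adjusted p = 0.0216) and Lrrc32, or GARP, by 0.38 (limma adjusted p = 0.012). In all, 3 of the 12 measured genes of this role fell and 1 rose, or 33.3%, against 15.0% of all genes. Nrros was called in 2 and Lrrc32 in 4 of the 6 fits with 1 array left out, and Itgav and Itgb8 in all 6.

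Among 24 other genes listed as ligands, 3 fell and 0 rose, or 12.5% called, against 15.0% of all genes. Of these 24, 20 lay above the array median on fewer than 3 arrays. Bmp1 is named as a BMP but encodes a protease that cleaves procollagen, chordin and LTBP1. It read 9.82, 9.76 and 9.73 in control and 9.20, 8.59 and 8.61 in L1CAM arrays, with replicate 1 between the controls and the other L1CAM arrays. Its difference was -0.97 (SE 0.15, limma adjusted p = 0.00719). Gdf11, a ligand close to myostatin, fell by 0.66 (limma adjusted p = 0.0178), a call held in 2 of the 6 fits with 1 array left out. Bmp15, an oocyte ligand on chromosome X, fell by 0.48 (limma adjusted p = 0.00911) with all arrays below the array medians.

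The other roles had few called genes each. Called were 20.0% of antagonists, 20.0% of signal regulators and 15.4% of further targets, against 15.0% of all genes. Among 15 genes listed as antagonists, Chrd, the BMP antagonist chordin, rose by 0.48 (limma adjusted p = 0.00617). Twsg1, which binds chordin and BMPs, fell by 0.37 (limma adjusted p = 0.0101, and 0.0508 without control replicate 3), and Fstl1, a follistatin-like glycoprotein, by 0.39 (limma adjusted p = 0.00533). Among 20 signal regulators, Zfyve9, or SARA, which brings SMAD2 and SMAD3 to the receptor, rose by 0.25 (limma adjusted p = 0.0439). The kinase gene Hipk2 (-0.51, limma adjusted p = 0.00621), Pmepa1, a TGF-beta target that dampens the signal (-0.53, limma adjusted p = 0.0247), and Tgfbrap1, which binds TGF-beta receptors (-0.28, limma adjusted p = 0.0491), fell. Zfyve9 and Tgfbrap1 were called in only 1 of the 6 fits with 1 array left out, the one without L1CAM replicate 1, and Pmepa1 in 3.

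Of 13 further target genes, Ccn2, a matricellular protein induced by TGF-beta and by YAP, read 7.75, 7.80 and 7.65 in control and 8.35, 8.74 and 8.73 in L1CAM arrays. It rose by 0.87 (SE 0.11, limma adjusted p = 0.00302), which is 1.83-fold, without overlap. Id4, the fourth ID gene, rose by 0.27 (limma adjusted p = 0.0241), a call held in 2 of the 6 fits with 1 array left out. None of the 11 other receptors and co-receptors was called. Eng, endoglin, the co-receptor typical of endothelium, measured -0.18 without overlap of the groups (95% interval -0.30 to -0.06, limma adjusted p = 0.0556).

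**Figure D5:**
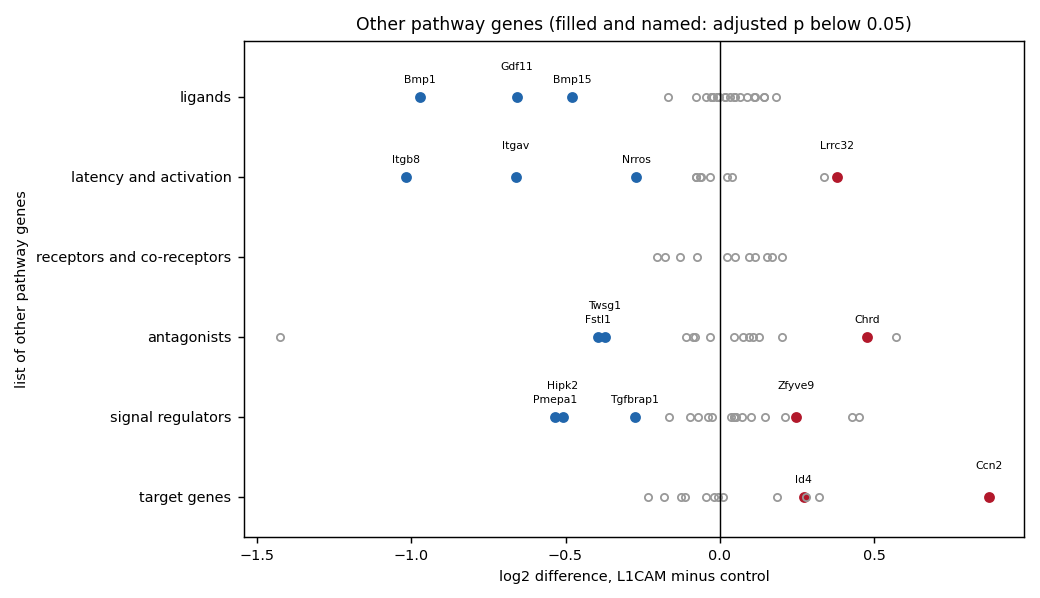
Log2 difference between L1CAM and control cells for the 95 other pathway genes measured, 1 point per gene, in rows by role. Filled, named points were called (red higher, blue lower) and open points were not; the latency and activation row has Itgb8 at -1.02 and Itgav at -0.66, and the target row Ccn2 at 0.87.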

How the data were processed

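Total RNA of the 6 cultures was hybridised to Affymetrix arrays. The deposited values are log2 expression per probe set, for which the submitters' processing notes name RMA and Affymetrix Expression Console 1.1. This method subtracts background, makes arrays comparable by quantiles and tends to shrink differences of dim probe sets. The array's genome build is not given in the sources used here, and scanner files and detection calls were not used. The number of arrays limits the precision.

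Of 35512 probe sets, 21789 had 1 gene symbol in the platform annotation, 1621 had several and 12102 were not listed. Per gene the probe set with the highest mean was kept, leaving 19938 genes. The group difference was the only term of a linear model per gene (limma 3.58.1, lmFit and eBayes, under R 4.3.3), tested two-sided with Benjamini-Hochberg adjustment over all genes. SE is the moderated standard error. Alternatives covered scaling, a filter on dim probe sets, probe set choice, variance prior, array weights, a replicate block and leaving out each array. On simulated data for this comparison over 19938 genes, 60% of 50 genes changed by 0.5 and 94% of 50 changed by 1 were recovered, with 8 false calls. The simulation changed far fewer genes than were called here. Its noise was normal and independent, without an array that stood apart, so these rates may not hold for the data. Figures used matplotlib 3.10.9.

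Members and lists were chosen with earlier results of these data known. All members are described. Of the other pathway genes, those called were to be named, up to 4 per role and direction. Promoter windows came from RefSeq tables of GRCm38.p6.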

Additional observations from a re-analysis of the deposited data

How the results depend on the processing

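The number of genes called was 2999 of 19938, and 5191 with array weights. With the filter on dim probe sets it was 3421 of the 11409 genes kept. That filter left out 5 of the 38 pathway genes. Leaving out 1 array gave 1033 to 4952. Pathway genes called higher numbered 5, with 2 to 8 when 1 array was left out, 3 with the filter on dim probe sets, which left out Bmp2, Bmp4 and Bmpr1a, and 8 with array weights. Those called lower numbered 5, with 4 to 6 when 1 array was left out and 8 under the dim filter. Array weights gained Tgfb2, Tgfbr2, Smad3 and Smad6, the dim filter Tgfb1, Tgfbr2, Smad6 and Skil, quantile normalization Smad6, and the intensity-trend prior Tgfb1 and Tgfbr2. Of the other pathway genes 5 were called higher, with 12 under array weights and 2 to 12 when 1 array was left out, and 11 lower, with 6 to 17 when 1 array was left out. Among genes not called, Acvrl1 (-0.046) and Acvr1b (0.012) changed sign with array weights. Leaving out 1 array gave -0.072 to 0.056 for Acvrl1, -0.081 to 0.028 for Acvr1b, -0.017 to 0.10 for Acvr2a, -0.0052 to 0.078 for Bmper, -0.027 to 0.061 for Nog and -0.084 to 0.0070 for Id2. The cause was not tested. Arrays with the same replicate number did not deviate together (correlations across genes -0.10, -0.10 and -0.03), so the number is not taken to pair them. With it as a replicate block 2067 genes were called, with 4 pathway genes higher and 5 lower: Bmp4 and Bmpr2 were lost and Tgfbr2 was gained. No detection calls were used, so signal over background is not known for dim probe sets.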

Other observations

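Outside the called genes, some of the other pathway genes differed strongly between L1CAM replicate 1 and the other L1CAM arrays. The following were chosen after their values were seen. Nrep, which encodes a neuronal regeneration-related protein, had the largest difference of the 95 other pathway genes but was not called. It read 11.22, 10.99 and 10.89 in control and 10.75, 9.08 and 8.98 in L1CAM replicates 1 to 3. The difference was -1.43 (SE 0.42, limma adjusted p = 0.0612), and -2.00 without L1CAM replicate 1 (limma adjusted p = 1.59e-05). Fst, which encodes the activin-binding protein follistatin, read 9.17, 9.37 and 9.72 in control and 9.13, 10.31 and 10.54 in L1CAM replicates 1 to 3. L1CAM replicate 1 was the lowest value of all and the other L1CAM arrays the highest, with a difference of 0.57 (limma adjusted p = 0.327) and 1.00 without it (limma adjusted p = 0.00191). Tgif1, a repressor of SMAD targets, measured 0.45 (limma adjusted p = 0.0972), and 0.65 without L1CAM replicate 1 (limma adjusted p = 0.000251).

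Smurf2 was the only pathway gene of the 38 with more than 1 probe set. Its probe set not used above read 8.65, 8.65 and 8.52 in control and 8.62, 8.87 and 8.84 in L1CAM arrays. It measured 0.17, against 0.09 for the one used, and neither was called.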
